A study of Mus musculus with 12 samples.

Results

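The transcription factor NRF2, encoded by Nfe2l2, and the antioxidant and detoxifying enzymes around it were followed in mouse primary neuronal cultures exposed to 5 antidepressants. The set held 33 genes: regulators of NRF2, enzymes of glutathione, thioredoxin and NADPH metabolism, enzymes that remove superoxide and peroxides, enzymes that modify quinones and electrophiles, export pumps, and the growth inhibitor Osgin1. A gene was read from the array's probe sets annotated with exactly 1 gene symbol, using the probe set of highest mean, and 29 of the 33 genes had one. All 29 passed the filter on low values, among 17467 genes tested of 22180 named on the array. Prdx1 and Tkt were covered only by probe sets carrying several symbols, and no probe set was matched to Prdx6 or G6pdx, so these 4 genes are not analysed here.

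The cultures came from embryonic brain of ICR (CD-1) mice, an outbred strain, and were kept in Neurobasal medium with glutamine, antibiotics and the serum-free supplement B27. In its usual form B27 itself contains antioxidants, and the labels do not say which form was used. On day 3 in vitro cultures received amitriptyline at 5 µM, imipramine at 5 µM, citalopram at 10 µM, duloxetine at 0.1 µM or mirtazapine at 50 µM, and all groups were harvested 48 h later, on day 5. Amitriptyline and imipramine are tricyclic antidepressants, citalopram is a selective serotonin reuptake inhibitor, duloxetine inhibits reuptake of serotonin and noradrenaline, and mirtazapine blocks adrenergic and serotonin receptors. Each of the 6 groups, control included, had 2 Affymetrix whole-transcript arrays, made from 100 ng of total RNA. Doses differ between drugs except for the tricyclics, so no other pair of drugs was tested against each other. Where values of drugs at unlike doses are ranked or grouped, drug and dose cannot be told apart. The labels do not say what the controls received, nor whether the 2 arrays of a group came from separate cultures, so the p-values cover the spread between these arrays alone, which may be technical. Since cultures hold several cell types, fewer cells of a type and less RNA per cell cannot be told apart.

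NRF2 is held in the cytoplasm by KEAP1, which directs its degradation. Oxidants and electrophiles modify KEAP1, and NRF2 then enters the nucleus, pairs with small MAF proteins and activates genes that carry an antioxidant response element in their regulatory DNA. The p62 protein, encoded by Sqstm1, binds KEAP1 and can release NRF2, and Sqstm1 is itself an NRF2 target. In brain tissue these target genes are known to be more active in astrocytes than in neurons.

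The DNA just upstream of the members' transcription starts is shown first for the members that are given array by array and whose 250 bases before the start hold a match to the patterns described next. RefSeq promoter windows of build GRCm38.p6, running from 250 bases before to 50 bases after the start, were matched for 28 of the 33 members. They were searched on both strands for the core of the antioxidant response element, TGACNNNGC. A second pattern, TGANTCAGC, was added after the sequences had been seen, and overlaps the first where a site reads TGACTCAGC. The core was present in 11 of the 28 members (39.3%), against 14% of 27025 genes in the RefSeq table. The second pattern was present in 5 of 28 members (17.9%), namely Srxn1, Prdx1, Me1, Gstp1 and Osgin1, against 1.37% of all genes. Since this pattern was chosen with the members' sequences in view, its higher share among them is a description only and no evidence of enrichment. A match is a description of the letters in this window, not of binding, and many known elements lie farther upstream than the window reaches. The 250 bases before the start are printed from 5′ to 3′ on the gene's own strand, with the matched letters in capitals.
Srxn1 promoter, chr2:152105274-152105523, plus strand: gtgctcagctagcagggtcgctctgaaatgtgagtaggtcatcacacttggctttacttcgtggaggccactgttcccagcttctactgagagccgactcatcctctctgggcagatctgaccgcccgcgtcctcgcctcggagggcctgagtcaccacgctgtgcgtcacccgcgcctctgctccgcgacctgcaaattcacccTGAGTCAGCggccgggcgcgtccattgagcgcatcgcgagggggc
Abcc4 promoter of the upstream start, chr14:118706220-118706469, minus strand: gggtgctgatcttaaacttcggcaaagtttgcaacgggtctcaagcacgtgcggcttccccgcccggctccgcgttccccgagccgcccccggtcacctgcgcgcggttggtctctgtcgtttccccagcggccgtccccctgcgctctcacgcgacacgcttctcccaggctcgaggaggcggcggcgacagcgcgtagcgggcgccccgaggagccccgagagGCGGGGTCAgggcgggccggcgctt
Abcc4 promoter of the downstream start, chr14:118676932-118677181, minus strand: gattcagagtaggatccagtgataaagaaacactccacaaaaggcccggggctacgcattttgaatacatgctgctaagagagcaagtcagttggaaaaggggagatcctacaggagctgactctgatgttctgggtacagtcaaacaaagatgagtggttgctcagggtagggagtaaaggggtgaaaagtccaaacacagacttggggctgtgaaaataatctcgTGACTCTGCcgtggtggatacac
Osgin1 promoter, chr8:119436897-119437146, plus strand: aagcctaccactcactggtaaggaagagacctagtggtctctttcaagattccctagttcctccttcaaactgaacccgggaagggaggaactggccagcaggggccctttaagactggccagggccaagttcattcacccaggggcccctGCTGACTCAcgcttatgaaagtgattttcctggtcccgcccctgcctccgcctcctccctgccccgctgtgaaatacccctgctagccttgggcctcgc
Nfe2l2 promoter, chr2:75704664-75704913, minus strand: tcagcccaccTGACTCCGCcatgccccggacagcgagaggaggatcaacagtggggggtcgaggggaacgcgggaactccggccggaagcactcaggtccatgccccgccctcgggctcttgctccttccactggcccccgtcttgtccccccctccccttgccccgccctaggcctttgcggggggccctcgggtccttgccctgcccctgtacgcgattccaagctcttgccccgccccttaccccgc
Gclm promoter, chr3:122245307-122245556, plus strand: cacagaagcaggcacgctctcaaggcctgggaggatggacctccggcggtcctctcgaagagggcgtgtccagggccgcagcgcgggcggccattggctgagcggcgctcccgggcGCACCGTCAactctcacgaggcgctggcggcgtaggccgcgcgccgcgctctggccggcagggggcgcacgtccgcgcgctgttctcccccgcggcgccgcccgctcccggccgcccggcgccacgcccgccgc
Sod1 promoter, chr16:90220512-90220761, plus strand: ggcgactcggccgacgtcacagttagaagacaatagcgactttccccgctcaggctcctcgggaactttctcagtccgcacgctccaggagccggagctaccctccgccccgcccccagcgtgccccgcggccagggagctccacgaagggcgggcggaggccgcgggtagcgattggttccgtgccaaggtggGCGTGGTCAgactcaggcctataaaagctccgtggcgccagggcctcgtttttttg

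In Srxn1 the capitals mark the second pattern, beginning 45 bases before the start; a core match on the opposite strand lies after the start, outside the printed bases. Abcc4 has separate annotated starts, and each window holds a core match, 25 bases before the upstream start and 23 bases before the downstream one. Osgin1 carries the second pattern on the opposite strand, 99 bases before its start. Nfe2l2 carries a core match 240 bases before its start, and Gclm and Sod1 each one on the opposite strand, 134 and 56 bases before their starts. Pgd, also given array by array, has a core match only after its start. The arrays measured RNA only, so nothing was measured at these sites.

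On all 12 arrays the 12 neuron markers lay above the filter on low values. Duloxetine replicate 2 and mirtazapine replicate 2 stood apart from the other 10 arrays on the first principal component, which held 52.5% of the variance over all genes. Their values were compressed, with slopes of 0.923 and 0.908 on the mean of the other arrays, against 0.997 to 1.029 for the other 10. Changes of call without both are given for the members' drug comparisons further below, and for other genes only in part. The values are log2 values after robust multi-array averaging (RMA), so a difference of 1 is a doubling, and levels are not compared between genes. Tests are moderated tests from limma over all 12 arrays, adjusted by Benjamini-Hochberg over the 17467 genes and called below 0.05.

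Among the 29 genes measured, Srxn1 and Abcc4 rose under mirtazapine, and no member passed the test under the other 4 drugs. Srxn1, encoding sulfiredoxin, the enzyme that repairs over-oxidised peroxiredoxins, rose 2.07-fold, and Abcc4, encoding an export pump for cyclic nucleotides, prostaglandins and organic anions, rose 2.01-fold. Under amitriptyline, imipramine and citalopram their differences from control were of like size, between 1.01 and 1.15 on the log2 scale, without passing the test. Under duloxetine, given at 0.1 µM, they were 0.29 and −0.01. In limma the unadjusted p of Srxn1 was 8.85e-05 under amitriptyline, 7.41e-05 under imipramine, 0.000142 under citalopram and 0.000154 under mirtazapine. For Abcc4 it was 0.000208, 0.000122, 0.000312 and 0.000312 in that order. The adjustment takes in all genes. Of these, 22.4% had an unadjusted p below 0.05 under mirtazapine, against 4.44% to 6.14% under amitriptyline, imipramine and citalopram. For most other members the differences were small, and the median difference over the 29 genes was 0.10 under amitriptyline, 0.10 under citalopram, −0.01 under duloxetine, 0.14 under imipramine and 0.01 under mirtazapine. Over all 17467 genes these medians lay between −0.04 and −0.01.

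**Figure D1:**
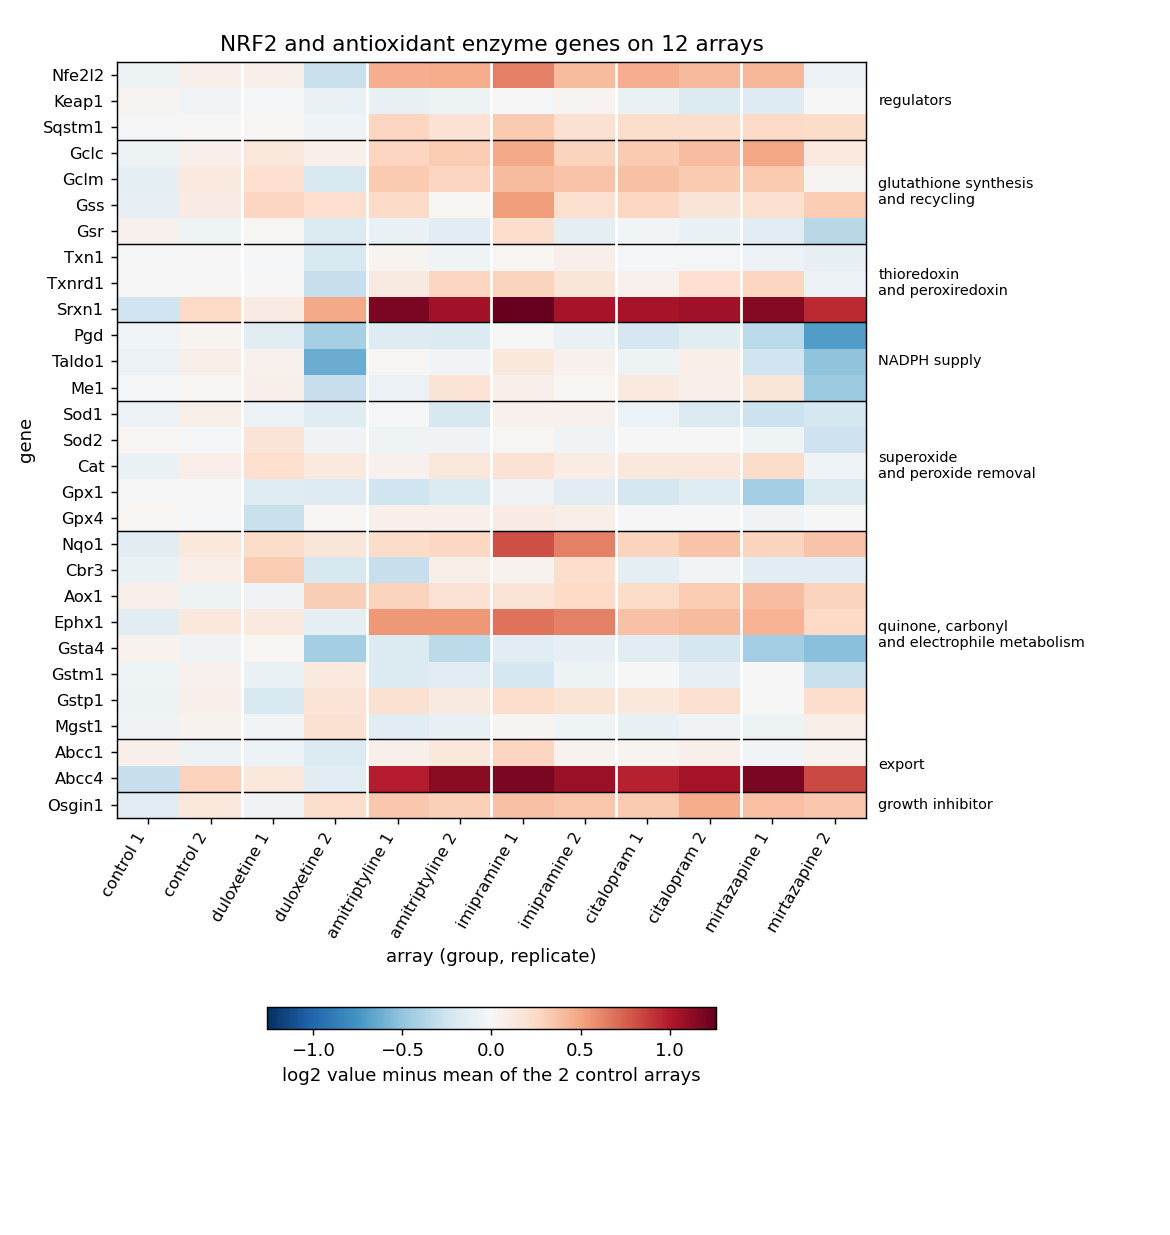
Heat map of the 29 measured genes (rows, grouped by role) on the 12 arrays (columns), coloured by log2 value minus the mean of the 2 control arrays. Srxn1 and Abcc4 are the most strongly coloured rows on the 8 arrays of amitriptyline, imipramine, citalopram and mirtazapine, and Pgd, Taldo1 and Me1 are blue on duloxetine replicate 2 and mirtazapine replicate 2.

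Under mirtazapine 2 of the 29 members passed the test, both upward, where 1.74% of all genes passed and 0.269% passed upward. A further 10 reached an unadjusted p below 0.05, so that 12 of 29 (41.4%) did, against 22.4% of all genes; 8 of the 12 were positive (27.6% of members, against 8.15% of all genes) and 4 negative (14.3% of all genes). Both mirtazapine arrays lay above both controls for 9 members and below them for 9, or 31% each, where all genes gave 22.6% above and 30.6% below. The members were chosen with earlier results of these data known. Their shares, here and below, are therefore descriptions and no independent support for a change of the set.

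Under amitriptyline 0 of 29 members passed, as did 0% of all genes, and under citalopram also 0 of 29 and 0% of all genes. At an unadjusted p below 0.05 there were 8 members under amitriptyline (27.6%, against 6.14% of all genes) and 10 under citalopram (34.5%, against 4.44%). All of these were positive, where positive differences at that level made up 1.91% of all genes under amitriptyline and 1.52% under citalopram. Both arrays lay above both controls for 13 members under amitriptyline (44.8%, against 14.1% of all genes) and for 15 under citalopram (51.7%, against 17%). They lay below both for 8 members (27.6%, against 24.2%) and 5 members (17.2%, against 22.1%).

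Under imipramine differences were positive for 23 of 29 members and negative for 6, whereas 45.9% of all genes were positive. None of the 29 passed the test under imipramine in limma, where 5 genes of the array did (0.0286%), and 10 members (34.5%, against 4.56% of all genes) had an unadjusted p below 0.05, all positive (1.58% of all genes). Both imipramine arrays lay above both controls for 16 members (55.2%, against 14.3%) and below both for 3 (10.3%, against 19.1%).

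Duloxetine gave 0 of 29 members past the test (0% of all genes) and 0 at an unadjusted p below 0.05 in limma, where 10% of all genes reached that level. Both arrays lay above both controls for 3 members (10.3%, against 15.5%) and below both for 4 (13.8%, against 18.3%). The 5 comparisons share the same 2 control arrays, so they are not independent of one another. In the F test for any difference among the 6 groups, 0 of 29 members and 0.103% of all genes passed; Abcc4 (adjusted p = 0.0609) and Srxn1 (adjusted p = 0.0653) were nearest among members. At an unadjusted p below 0.05 the F test gave 8 members (27.6%), against 10.8% of all genes.

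The 2 control arrays themselves differed in this set. Control replicate 2 read higher than replicate 1 for 20 of the 29 members (69%), against 57.9% of all genes, and by 0.58 for Abcc4 and 0.50 for Srxn1. Mirtazapine replicate 2 read lower than replicate 1 for 19 members, against 9510 of 17467 genes. Duloxetine replicate 2 read lower than replicate 1 for 22 members, against 9049 of 17467 genes. The second array read higher for 31% of members under mirtazapine (44.2% of all genes) and 24.1% under duloxetine (46.8% of all genes). With both arrays that stood apart left out, 3 members passed under amitriptyline (Abcc4, Srxn1 and Ephx1), where 1.31% of all genes did, 4 under imipramine (the same with Nqo1), where 0.481% did, and 3 under mirtazapine (Abcc4, Srxn1 and, downward, Gpx1), where 2.12% did. The sign of the difference turned in that fit for 12 of 29 members under duloxetine and 3 under mirtazapine, none of them called, and for 0 under the other 3 drugs. In that fit duloxetine and mirtazapine each have 1 array, assumed to vary like the other groups.

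**Figure D2:**
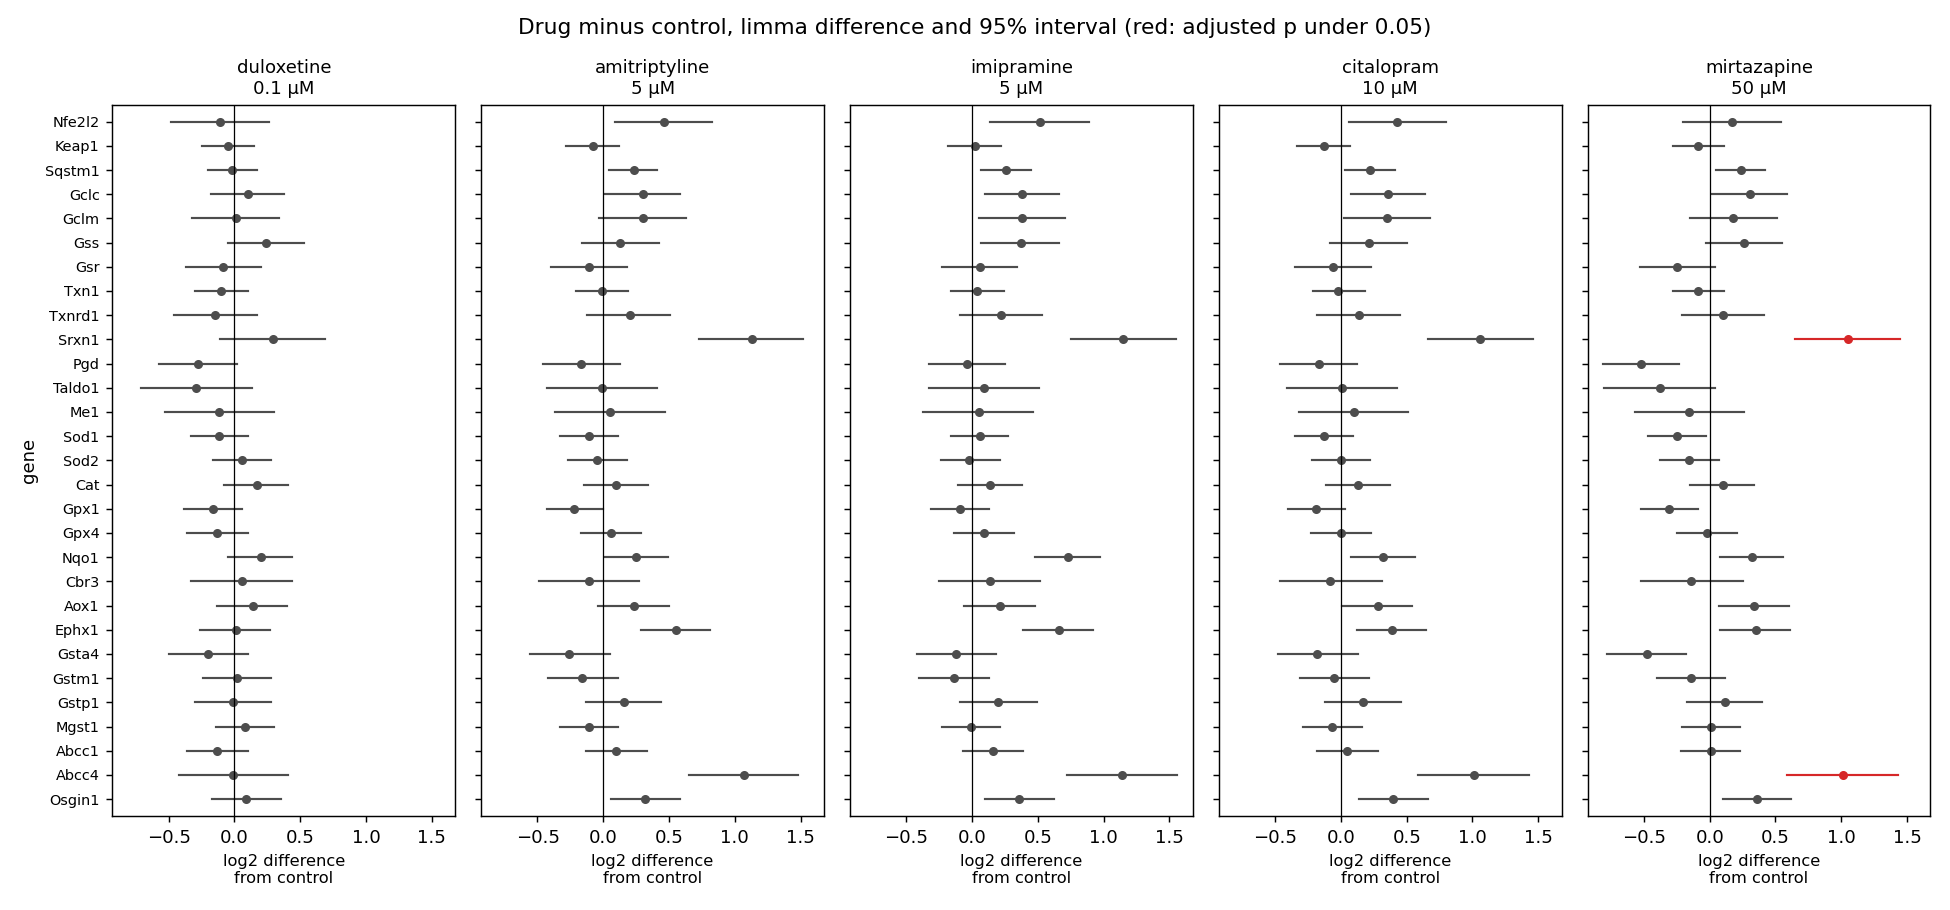
Log2 difference from control (points) with 95% interval (lines) for the 29 genes in each of the 5 drug comparisons, from limma; red marks an adjusted p below 0.05. Srxn1 and Abcc4 stand to the right of the other genes in the amitriptyline, imipramine, citalopram and mirtazapine panels, and are red under mirtazapine.

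The regulators were Nfe2l2, Keap1 and Sqstm1. Nfe2l2 read 8.49 and 8.62 on the control arrays, 9.01 and 9.02 under amitriptyline, 9.19 and 8.95 under imipramine, 9.01 and 8.96 under citalopram, 8.97 and 8.48 under mirtazapine, and 8.62 and 8.27 under duloxetine. All arrays of the first 3 drugs lay above both controls, while mirtazapine and duloxetine overlapped them. The differences from control were 0.46, 0.52 and 0.43 for amitriptyline, imipramine and citalopram, 0.17 for mirtazapine and −0.11 for duloxetine, each ± 0.17 (SE), and none passed (adjusted p from 0.523 to 0.977). Without both arrays that stood apart the Nfe2l2 differences were 0.415 for mirtazapine (adjusted p = 0.108) and 0.065 for duloxetine. NRF2 activity is set largely at the protein level, which arrays do not read.

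Sqstm1 read 11.55 and 11.57 in control, 11.57 and 11.52 under duloxetine, and between 11.74 and 11.89 on the 8 other treated arrays. The 4 other drugs therefore lay wholly above the controls, by a narrow margin of 0.22 to 0.26 ± 0.08 (SE), and none passed the test (adjusted p from 0.164 to 0.962). Keap1, encoding the repressor, ranged only from 8.55 to 8.76 over the 12 arrays. Its differences ran from −0.13 for citalopram to 0.02 for imipramine. A second, dimmer Keap1 probe set ranged from 6.48 to 6.94.

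Glutathione is made by glutamate-cysteine ligase, with catalytic and modifier subunits encoded by Gclc and Gclm, and by glutathione synthetase, encoded by Gss; glutathione reductase, encoded by Gsr, recycles the oxidised form. Gclc read 9.42 and 9.54 in control, 9.75 and 9.80 under amitriptyline, 9.96 and 9.76 under imipramine, 9.81 and 9.87 under citalopram, 9.97 and 9.60 under mirtazapine, and 9.62 and 9.54 under duloxetine. Every array of the first 4 drugs exceeded both controls, and duloxetine overlapped them. The differences were 0.30, 0.38, 0.36, 0.31 and 0.10 in that order, each ± 0.13 (SE), without passing the test (adjusted p from 0.199 to 0.857).

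Gclm read 9.71 and 9.95 in control, 10.16 and 10.10 under amitriptyline, 10.23 and 10.19 under imipramine, 10.20 and 10.16 under citalopram, 10.16 and 9.86 under mirtazapine, and 10.04 and 9.64 under duloxetine. Amitriptyline, imipramine and citalopram lay above the controls, with differences of 0.30, 0.38 and 0.35 ± 0.15 (SE), and mirtazapine and duloxetine overlapped them. The second array was the lower of the pair under both of these drugs. No Gclm difference passed (adjusted p from 0.447 to 1). Without both arrays that stood apart, those of mirtazapine and duloxetine were 0.33 and 0.21. Gss ranged from 7.17 to 7.80, with its largest difference under imipramine (0.37). Gsr ranged from 9.75 to 10.32 and had differences between −0.25 under mirtazapine and 0.06 under imipramine.

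In the thioredoxin system, thioredoxin (Txn1) and thioredoxin reductase (Txnrd1) keep protein thiols reduced, and sulfiredoxin (Srxn1) restores peroxiredoxins. Srxn1 read 8.98 and 9.48 in control, 10.42 and 10.29 under amitriptyline, 10.49 and 10.27 under imipramine, 10.28 and 10.30 under citalopram, 10.39 and 10.17 under mirtazapine, and 9.33 and 9.71 under duloxetine. The 8 arrays of the first 4 drugs thus lay between 10.17 and 10.49, all above the 4 control and duloxetine arrays, and duloxetine overlapped the controls. The control mean was 9.23 ± 0.35 (SD, n = 2) and the mirtazapine mean 10.28 ± 0.16 (SD, n = 2).

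The Srxn1 difference under mirtazapine was 1.05 ± 0.18 (SE; 95% interval 0.65 to 1.45; adjusted p = 0.0228, limma). It was 1.13 under amitriptyline (adjusted p = 0.0737), 1.15 under imipramine (0.0808), 1.06 under citalopram (0.276) and 0.29 under duloxetine (0.542), adjusted p in parentheses. Ranked by signed difference from the top of 17467 genes, Srxn1 stood 9th under amitriptyline, 6th under citalopram, 11th under imipramine and 9th under mirtazapine. The call under mirtazapine held in 15 of 21 alternative analyses, with differences from 0.80 to 1.30 and adjusted p from 0.00964 to 0.179. It was lost without control replicate 1 (0.80, adjusted p = 0.179), without mirtazapine replicate 2 (adjusted p = 0.109), without either citalopram array (0.0526), with array weights (0.0537) and with only mirtazapine and control in the fit (0.0896).

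Txnrd1 ranged from 9.43 on duloxetine replicate 2 to 10.01 on imipramine replicate 1. Its differences ran from −0.15 under duloxetine to 0.22 under imipramine, and none passed. Txn1 varied least in this system, from 11.16 to 11.41, with differences from −0.10 to 0.04.

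NADPH supplies the electrons for both glutathione and thioredoxin reductase, and Pgd, Taldo1 and Me1 encode phosphogluconate dehydrogenase and transaldolase of the pentose phosphate pathway and cytosolic malic enzyme. Pgd read 10.33 and 10.39 in control, 10.20 and 10.19 under amitriptyline, 10.36 and 10.28 under imipramine, 10.15 and 10.23 under citalopram, 10.02 and 9.66 under mirtazapine, and 10.23 and 9.94 under duloxetine. All groups but imipramine lay below both controls. The lowest array was mirtazapine replicate 2, followed by duloxetine replicate 2, the 2 arrays that stood apart over all genes. The Pgd difference was −0.52 ± 0.13 (SE) under mirtazapine (adjusted p = 0.0823) and between −0.28 and −0.04 under the other drugs. Under mirtazapine it was −0.34 (adjusted p = 0.0907) without both arrays that stood apart, and −0.70 (adjusted p = 0.0261) without mirtazapine replicate 1.

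Taldo1 was lowest on the same arrays, at 7.98 on duloxetine replicate 2 and 8.10 on mirtazapine replicate 2, against 8.36 to 8.74 on the other 10. Me1 too was lowest there, at 9.24 and 9.07, against 9.46 to 9.71 elsewhere. Neither passed in any comparison over the 12 arrays. Under mirtazapine the differences of Taldo1 and Me1 were −0.38 and −0.16 with all arrays, and −0.25 and 0.155 without both that stood apart. Under duloxetine those of Pgd, Taldo1 and Me1 were −0.28, −0.29 and −0.12 with all arrays, and −0.13, 0.05 and 0.065 without both.

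**Figure D3:**
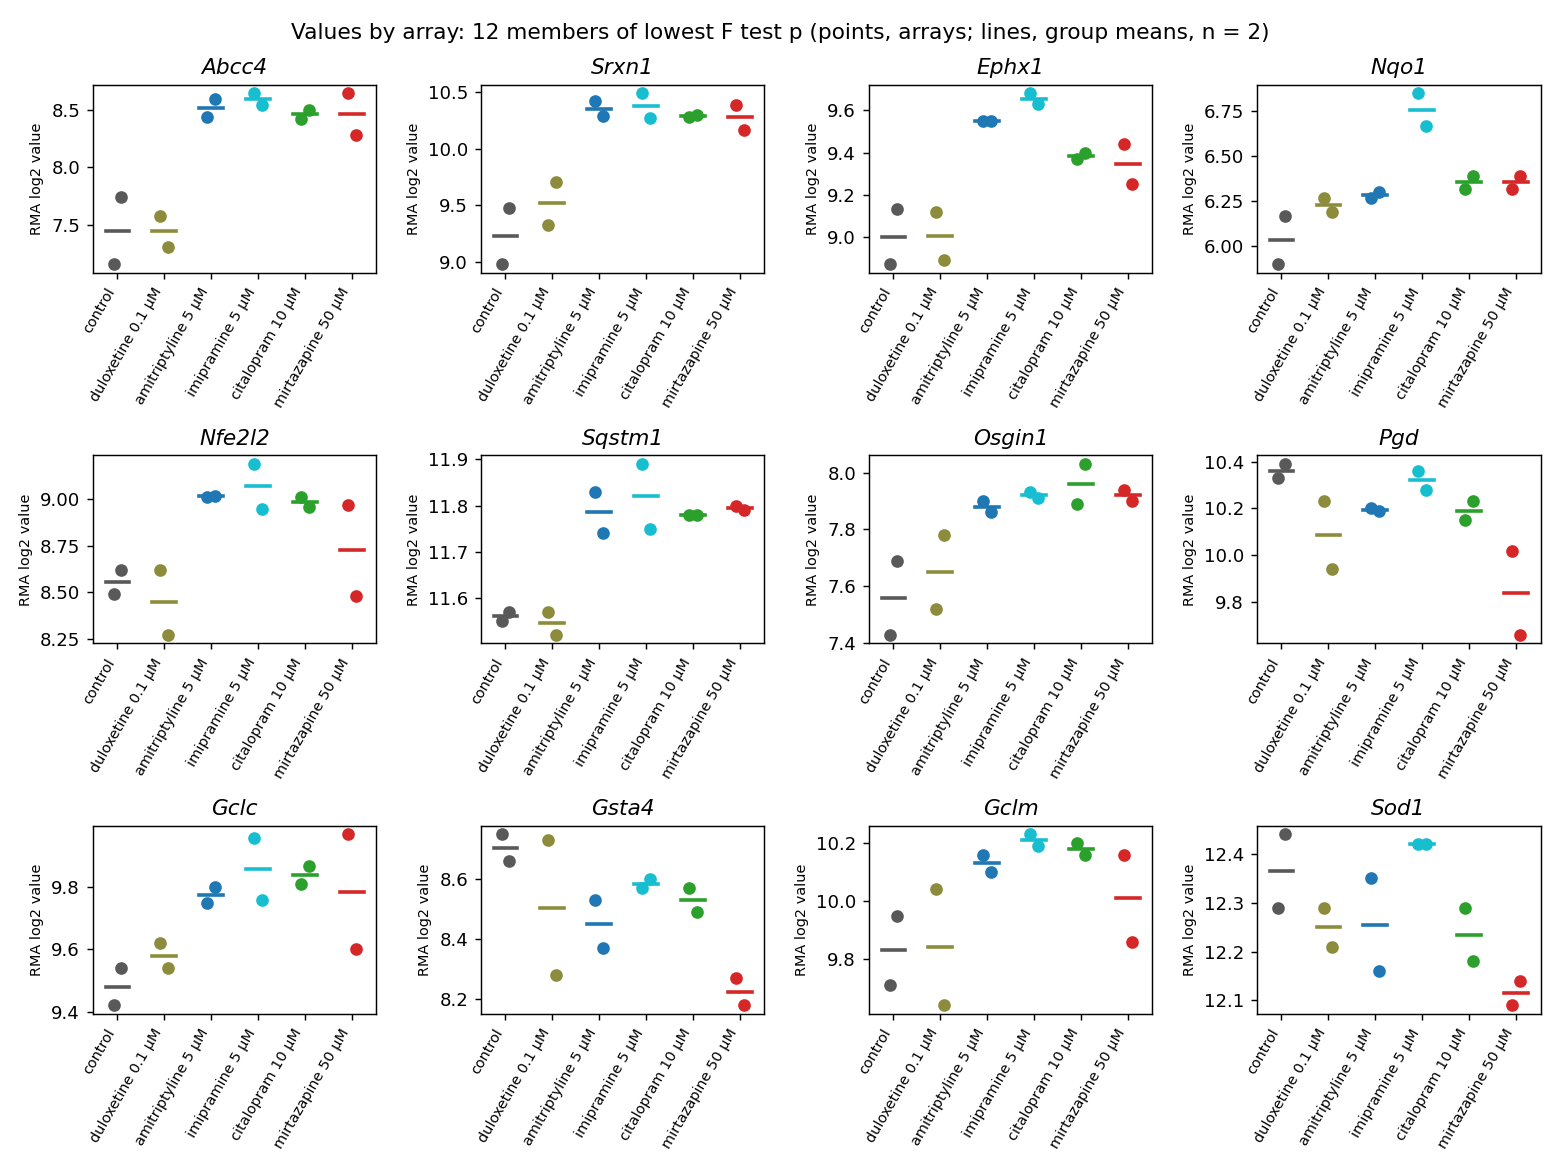
RMA log2 values of the 12 members of lowest F test p by group; points are arrays and lines are group means (n = 2). For Srxn1 the 8 arrays of amitriptyline, imipramine, citalopram and mirtazapine lie between 10.17 and 10.49, above the 4 control and duloxetine arrays, and for Nqo1 the 2 imipramine arrays are the highest, at 6.85 and 6.67.

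Superoxide is converted to hydrogen peroxide by the superoxide dismutases (Sod1 in the cytosol, Sod2 in mitochondria), and peroxides are removed by catalase (Cat) and glutathione peroxidases (Gpx1, and Gpx4 for lipid peroxides). Sod1 read 12.29 and 12.44 in control, 12.35 and 12.16 under amitriptyline, 12.42 and 12.42 under imipramine, 12.29 and 12.18 under citalopram, 12.09 and 12.14 under mirtazapine, and 12.29 and 12.21 under duloxetine. Only the mirtazapine arrays lay wholly below the controls (−0.25 ± 0.10 SE, adjusted p = 0.186). Gpx1 read 9.63 and 9.62 in control and between 9.20 and 9.58 on the 10 treated arrays, so every drug lay below the controls, by 0.09 to 0.31. Its largest difference, −0.31 ± 0.10 (SE) under mirtazapine, had an adjusted p of 0.13 over all 12 arrays and 0.0492 (difference −0.43) without the arrays that stood apart. Sod2, Cat and Gpx4 had differences within −0.16 and 0.17 in all 5 comparisons, and none passed.

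The enzymes of quinone, carbonyl and electrophile metabolism did not move as a block. Nqo1, encoding the quinone reductase often used as a readout of NRF2, read 5.90 and 6.17 in control, 6.85 and 6.67 under imipramine, 6.27 and 6.30 under amitriptyline, 6.32 and 6.39 under citalopram, 6.32 and 6.39 under mirtazapine, and 6.27 and 6.19 under duloxetine. Every treated array exceeded both controls, and the imipramine arrays exceeded all others. The difference was 0.73 ± 0.11 (SE) under imipramine (1.65-fold, adjusted p = 0.0734) and 0.20 to 0.32 under the other drugs (adjusted p from 0.147 to 0.823). Nqo1 lay close to the filter value of 5.72, where RMA values compress differences.

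Ephx1, encoding microsomal epoxide hydrolase, read 8.87 and 9.13 in control, 9.55 and 9.55 under amitriptyline, 9.68 and 9.63 under imipramine, 9.37 and 9.40 under citalopram, 9.44 and 9.25 under mirtazapine, and 9.12 and 8.89 under duloxetine. Again the first 4 drugs lay above the controls and duloxetine overlapped them. The differences were 0.55 (adjusted p = 0.142), 0.66 (0.105), 0.39 (0.682), 0.35 (0.147) and 0.01 (0.984), each ± 0.12 (SE), with adjusted p in parentheses.

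Gsta4, encoding a glutathione transferase for lipid peroxidation products, went the other way in value. It read 8.75 and 8.66 in control, 8.53 and 8.37 under amitriptyline, 8.57 and 8.60 under imipramine, 8.57 and 8.49 under citalopram, 8.27 and 8.18 under mirtazapine, and 8.73 and 8.28 under duloxetine. All but duloxetine lay below both controls, most of all mirtazapine (−0.48 ± 0.14 SE, adjusted p = 0.105). Under duloxetine the Gsta4 difference was −0.20 with all arrays and 0.025 without both that stood apart. Aox1, encoding aldehyde oxidase, ranged from 6.50 to 6.95, with positive differences of 0.14 to 0.34. Cbr3, encoding a carbonyl reductase, ranged from 5.96 to 6.57 and overlapped the controls under all drugs but mirtazapine (−0.14). Gstm1, Gstp1 and Mgst1, encoding further glutathione transferases, had differences from −0.16 to 0.20. Gstm1 and Gstp1 have near-identical relatives in the mouse genome, so their probe sets may also read those.

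Of the export pumps, Abcc4 read 7.16 and 7.74 in control, 8.44 and 8.59 under amitriptyline, 8.64 and 8.54 under imipramine, 8.42 and 8.50 under citalopram, 8.64 and 8.28 under mirtazapine, and 7.58 and 7.31 under duloxetine. The 8 arrays of the first 4 drugs lay between 8.28 and 8.64, above every control and duloxetine array, and duloxetine lay within the range of the controls. The control mean was 7.45 ± 0.41 (SD, n = 2) and the mirtazapine mean 8.46 ± 0.25 (SD, n = 2).

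The Abcc4 difference under mirtazapine was 1.01 ± 0.19 (SE; 95% interval 0.59 to 1.43; adjusted p = 0.0303, limma). It was 1.07 under amitriptyline (adjusted p = 0.0932), 1.14 under imipramine (0.0907), 1.01 under citalopram (0.326) and −0.01 under duloxetine (0.99). The call under mirtazapine held in 11 of 21 alternatives, with differences from 0.72 to 1.30 and adjusted p from 0.0162 to 0.189. It was lost without control replicate 1 (0.72, adjusted p = 0.189), without mirtazapine replicate 2 (0.104), without either array of amitriptyline (0.0601), citalopram (0.0678) or imipramine (0.0599), with array weights (0.0715) and with only mirtazapine and control in the fit (0.113). Abcc1, encoding the pump for glutathione conjugates, ranged from 8.06 to 8.52 and had differences from −0.13 to 0.16.

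Osgin1, encoding an oxidative stress induced growth inhibitor, read 7.43 and 7.69 in control, 7.90 and 7.86 under amitriptyline, 7.93 and 7.91 under imipramine, 7.89 and 8.03 under citalopram, 7.94 and 7.90 under mirtazapine, and 7.52 and 7.78 under duloxetine. The 8 arrays of the first 4 drugs fell within 7.86 and 8.03, all above both controls. The differences were 0.32, 0.36, 0.40, 0.36 and 0.09 ± 0.12 (SE), and none passed (adjusted p from 0.136 to 0.75).

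Amitriptyline and imipramine, both tricyclics with the same dose and time, were the 1 pair of drugs that could be compared at a matched concentration. None of the 29 members differed between them after adjustment in limma (0% of all genes), and 1 member, Nqo1, had an unadjusted p below 0.05 (1.21% of all genes, and 0.561% in that direction). Nqo1 was higher under imipramine by 0.48 (95% interval 0.23 to 0.72; adjusted p = 1), and both imipramine arrays lay above both amitriptyline arrays. For Srxn1 the difference was 0.03 (95% interval −0.37 to 0.42) and for Abcc4 0.08 (−0.34 to 0.49). Differences within these bounds are not excluded. The intervals are not adjusted for the number of genes and do not give the size that the adjusted test could find. Over the 29 members 27 differences were positive, with a median of 0.08, against 57.1% positive and a median of 0.02 over all genes. Leaving out 1 array at a time, the members' median ranged from 0.03 to 0.125. Both imipramine arrays exceeded both amitriptyline arrays for 12 members (41.4%, against 20.3% of all genes) and lay below both for 0 (12.4% of all genes).

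**Figure D4:**
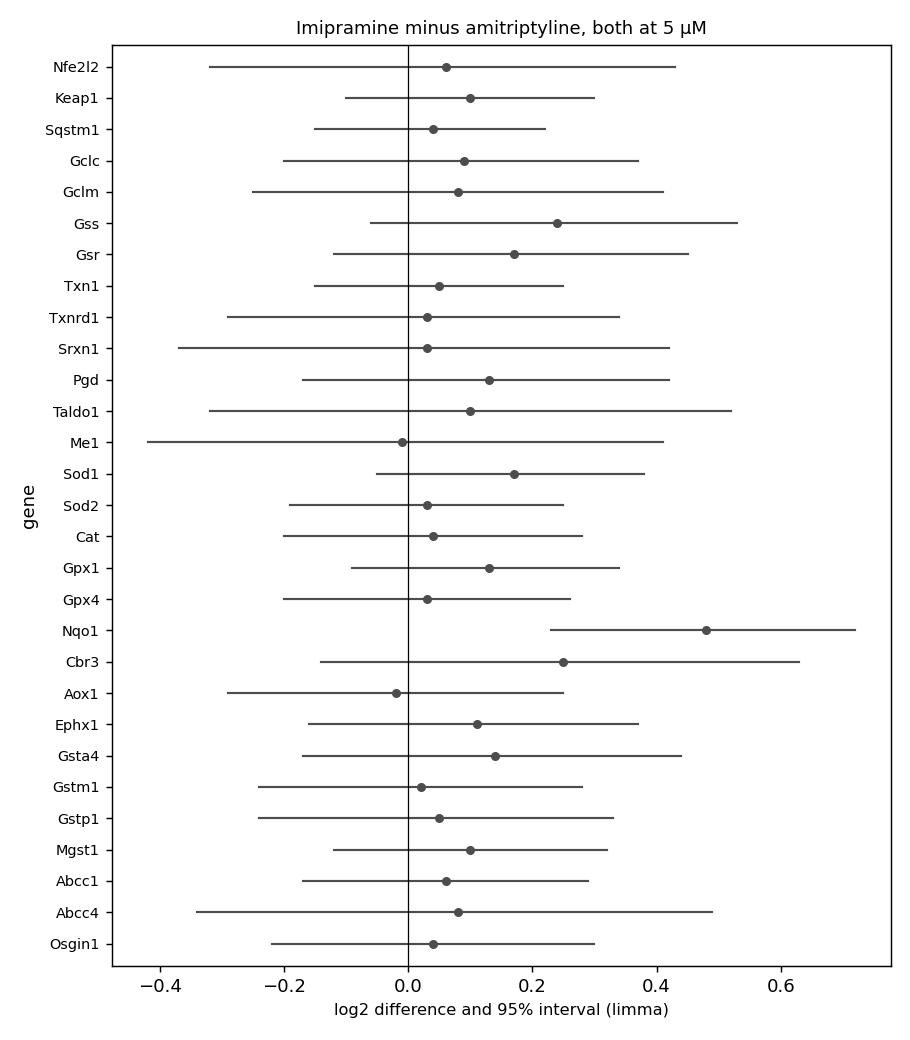
Log2 difference between imipramine and amitriptyline, both at 5 µM, with 95% interval for the 29 genes (limma; positive means higher under imipramine). The interval of Nqo1 (0.23 to 0.72) is the only one that excludes 0.

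Of 73 further genes of the pathway, 62 were tested: partners and repressors of NRF2, other thiol, conjugating and NADPH enzymes, and genes of cystine uptake, heme and iron. Their median difference lay between −0.09 and 0.01 in the 5 drug comparisons. Of the 62, 0 passed under amitriptyline, citalopram and duloxetine, 1 passed upward under imipramine (0.0286% of all genes), and under mirtazapine 1 passed upward (0.269% of all genes) and 3 downward (1.47% of all genes). Without the arrays that stood apart, more of the 62 passed under these 2 drugs and amitriptyline, not all upward. Under mirtazapine Hmox1 (1.33) and Slc7a11 (1.44) were higher in that fit, and Gstk1 (−1.16) and Gstm7 (−0.44) lower. Of 19 further thiol enzymes tested, none passed over all 12 arrays. Positive differences numbered 3 under amitriptyline, 4 under citalopram, 3 under duloxetine, 6 under imipramine and 4 under mirtazapine. Over all genes 41.7% to 47.4% were positive. Hmox1, encoding the inducible heme oxygenase and a classical NRF2 target, rose under imipramine and mirtazapine. It read 9.02 and 9.48 in control, 10.52 and 10.53 under amitriptyline, 10.62 and 10.45 under imipramine, 10.38 and 10.39 under citalopram, 10.58 and 10.24 under mirtazapine, and 9.22 and 9.26 under duloxetine. As with Srxn1 and Abcc4, 8 treated arrays lay above every control and duloxetine array. The differences were 1.28 (adjusted p = 0.0542), 1.29 (0.0388), 1.14 (0.151), 1.16 (0.0153) and −0.01 (0.983), with adjusted p in parentheses, and the F test gave an adjusted p of 0.0348. The imipramine call held in 11 of 21 alternatives and the mirtazapine call in 18 of 21. Hmox1 also passed in 8 of 21 under amitriptyline and in 3 of 21 under citalopram.

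Slc7a11, encoding the cystine importer that feeds glutathione synthesis, read 9.78 and 10.58 in control, the widest control gap among the genes given by array. It read 11.49 and 11.53 under amitriptyline, 11.67 and 11.46 under imipramine, 11.41 and 11.39 under citalopram, 11.62 and 11.12 under mirtazapine, and 10.58 and 9.97 under duloxetine. The first 4 drugs lay above both controls and duloxetine did not. The differences of 1.33, 1.39, 1.22 and 1.19 ± 0.27 (SE) did not pass (adjusted p = 0.126, 0.143, 0.399 and 0.0587). Without both arrays that stood apart Slc7a11 passed under amitriptyline (adjusted p = 0.0344), imipramine (adjusted p = 0.041) and mirtazapine (difference 1.44, adjusted p = 0.0356).

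Under mirtazapine 3 further conjugating or reducing enzymes fell, and no such gene rose among the 15 tested, where 1.47% of all genes passed downward and 0.269% upward. Gstk1, encoding a mitochondrial and peroxisomal glutathione transferase, read 8.09 and 7.97 in control and 6.87 and 6.76 under mirtazapine, a fall of 2.32-fold (log2 difference −1.22, adjusted p = 0.0315). Nqo2, encoding the second quinone reductase, read 6.96 and 6.96 in control and 6.21 and 5.78 under mirtazapine, a fall of 1.95-fold (−0.97, adjusted p = 0.0398). Gstm7, encoding another glutathione transferase, read 8.02 and 7.96 in control and 7.55 and 7.43 under mirtazapine, a fall of 1.41-fold (−0.50, adjusted p = 0.0251). Without the arrays that stood apart, the calls of Gstk1 and Gstm7 held and that of Nqo2 was lost. The calls held in 12 of 21, 8 of 20 and 10 of 21 alternatives for Gstk1, Nqo2 and Gstm7. In the 3 genes both arrays of amitriptyline, imipramine and citalopram also lay below both controls, with differences from −0.17 to −0.71 that did not pass.

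Markers of other cells moved alongside these genes. Of 15 astrocyte markers, 14 were measured and 13 lay above the filter (Gjb6 below it), and their summed intensity was 9630 to 10500 in control, 7910 to 8710 under amitriptyline, 8410 to 8580 under imipramine, 9130 to 9280 under citalopram, 8330 to 8540 under mirtazapine and 10400 to 10500 under duloxetine. The astrocyte markers were thus lower in sum under the 4 drugs whose arrays read high for Srxn1, Abcc4 and Hmox1. Their median log2 differences were −0.30, −0.21, −0.15, −0.31 and 0.05 in the same order. Of the 13 above the filter, 0, 0, 3, 2 and 9 had positive differences, again in that order. Such sums weigh the bright markers most. Oligodendrocyte lineage markers, 9 of 11 above the filter with Mag below it, summed to 3710 to 5270 in control and 2760 to 3340 under those 4 drugs, and to 5280 to 5330 under duloxetine. Progenitor markers, 9 of 9 above the filter, summed to 17500 to 17600 in control, 14600 to 16000 under the 4 drugs and 15200 to 17700 under duloxetine. Under mirtazapine Gfap (−0.60), Aqp4 (−1.17), Olig1 (−0.83), Hes5 (−1.15) and Dcn (−1.61) fell, where 1.47% of all genes passed downward. In each of these genes both arrays of amitriptyline, imipramine and citalopram also lay below both controls. Over all genes 24.2%, 19.1% and 22.1% did so. The Aqp4 differences were −1.03, −0.93 and −0.77 in that order. No marker passed under these drugs over the 12 arrays. Marker calls under amitriptyline and imipramine changed without the arrays that stood apart. Differences under mirtazapine were positive for 2 of 13 astrocyte markers, 1 of 9 oligodendrocyte lineage markers (Mog, 0.47) and 1 of 9 progenitor markers (Nes, 0.27). Nes read 8.52 and 8.65 in control, 8.86 and 9.13 under amitriptyline, 9.13 and 8.89 under imipramine, 8.92 and 8.98 under citalopram, and 9.14 and 8.56 under mirtazapine. Dcn was the only one of 9 fibroblast and pericyte markers tested that passed under mirtazapine, while 5 of the 9 had positive differences and the median was 0.07. Without the arrays that stood apart the Olig1 call was lost and the other 4 held. The neuron markers summed to 39000 to 41700 in control and 36700 to 41600 over the drugs, with none called. Microglia markers (12 of 12 above the filter) summed to 1750 to 2100 in control and 1720 to 2180 over the drugs. Endothelial markers (8 of 10 above the filter) summed to 748 to 816 and 757 to 971. Fibroblast and pericyte markers (9 of 10 above the filter) summed to 1730 to 1810 and 1380 to 1920. All the sums given here include measured markers below the filter, among them Tek, Emcn and Lum. Of 6 erythroid markers 1, Hbb-y, was measured, and it lay below the filter. The part of these shifts in the differences of the antioxidant genes was not tested.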

How the data were processed

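RNA of primary neuronal cultures was measured on 12 whole-transcript arrays, 2 for each of 6 groups; group and replicate number came from the labels' titles. The deposited values are log2 values that the authors made with Affymetrix Expression Console and RMA, per the submitters' processing notes; RMA subtracts background, quantile-normalizes arrays and summarises probes, which narrows differences of dim genes. For the arrays, tool versions, settings and the build were not given in the sources used here. Array values carry no read depth, so precision is limited by how many arrays there are; the median half-width of a 95% interval was 0.27 log2 units over the members.

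Of 41345 probe sets, 23521 had in the platform annotation 1 symbol, 1814 several and 16010 none, and 99.2% of those with 1 matched the RefSeq GRCm38 table. Genes with a mean of at least 5.72, the 30th percentile, were tested in limma 3.58.1 (R 4.3.3): 1 model of 6 group means, with 6 residual and 3.86 prior degrees of freedom, two-sided. The fit was tested on simulated data. Values of every array are given for members called and the 12 of lowest F test p, other members by range; of other pathway genes, those called and always Hmox1 and Slc7a11. The members and lists were chosen with earlier results of these data known. The alternatives were other filters, probe set rules, variance moderation, a second quantile normalization, array weights, a block for the replicate number, fewer groups and arrays left out. The labels do not pair samples by replicate number, and the main fit used no pairing. Correlations of deviations over 15 group pairs ran from −0.44 to 0.71. They do not exclude a culture or batch shared by some arrays. Figures were drawn with matplotlib 3.10.9.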

Additional observations from a re-analysis of the deposited data

How the results depend on the processing

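With 2 arrays a group, single arrays decided most calls, and the cause was not tested. Members called, against 0 for amitriptyline, citalopram, imipramine, duloxetine and the F test and 2 for mirtazapine, changed as follows. Array weights gave 3 for amitriptyline, 2 for citalopram, 4 for imipramine, 0 for mirtazapine and 1 for the F test; over all genes it called 222, 76, 128, 110 and 21, against 0, 0, 5, 304 and 18 in the main analysis. Leaving out both arrays that stood apart gave 3 for amitriptyline, 4 for imipramine, 3 for mirtazapine and 1 for the F test (228, 84, 370 and 50 of all genes). Trended robust moderation gave 1 for amitriptyline, 1 for imipramine, 3 for mirtazapine, with Pgd downward, and 2 for the F test (28, 17, 441 and 88 of all genes). A second quantile normalization gave 1 for imipramine, Ephx1, 3 for mirtazapine and 2 for the F test (18, 348 and 79 of all genes), and moved the members' mirtazapine median from 0.01 to 0.12. The 50th percentile filter, with fewer genes tested, gave 2 for the F test (75 of all genes), and fitting only mirtazapine and control gave 0 for mirtazapine (14 of all genes). Leaving out 1 array at a time, where the lone array of a group is assumed to vary like the other groups, gave 0 to 2 for amitriptyline, 0 for citalopram, 0 to 3 for imipramine, 0 to 4 for mirtazapine, 0 to 2 for duloxetine and 0 to 3 for the F test. For mirtazapine 4 members passed without either duloxetine array (Abcc4, Gsta4, Pgd and Srxn1; 1328 of all genes), and 0 without control replicate 1, mirtazapine replicate 2 or either citalopram array. Without duloxetine replicate 1, Gsta4 and Taldo1 passed, downward, under duloxetine (2040 of all genes). Without control replicate 2, Abcc4 and Srxn1 passed under amitriptyline, and with Nqo1 under imipramine (17 and 21 of all genes). The members' median ranged from 0.03 to 0.115 under amitriptyline and from −0.11 to 0.04 under duloxetine. Under 1 or more alternatives the difference turned sign for 19 of 29 members under duloxetine, 8 under mirtazapine, 5 under imipramine, 4 under amitriptyline and 3 under citalopram. None of these was called in the main analysis, and the 19 under duloxetine include Gsta4 and Taldo1. Under duloxetine the difference of Abcc4 (−0.01) became 0.009 with the second normalization, 0.13 without both arrays that stood apart, and 0.13 to 0.285 without duloxetine or control replicate 2, and lay at −0.295 without control replicate 1; that of Ephx1 (0.01) became −0.125 and −0.11 without replicate 1 of control or of duloxetine. With the replicate number as a block, 2 members were called under mirtazapine and 0 elsewhere, as without it; the pairing has no basis in the labels. For imipramine against amitriptyline 0 members were called under every alternative run.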
